A study of Mus musculus with 28 samples.

Results

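The subject is a small family of serine/threonine kinases, the salt-inducible kinases Sik1, Sik2 and Sik3, the NUAK kinases Nuak1 and Nuak2, the AMPK catalytic subunits Prkaa1 and Prkaa2, and their common upstream kinase Stk11 (LKB1). The 8 genes were matched by symbol among the 24391 rows of a table of read counts, and all 8 were present and passed the filter on low counts in every comparison. They were selected on their known kinship and around Sik1 and Nuak2, whose higher levels on microglial ribosomes after running were already known from these data, as was the enrichment of Nuak2 there. The run over home cage values in the ribosome fraction are therefore given as a description. So are the fraction ratios of Nuak2 and Sik1 and the difference of their run effects between fractions. The counts of calls made from these values support nothing.

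LKB1 phosphorylates the activation loop of AMPK and of most of the AMPK-related kinases, and is known as their master kinase. AMPK is a trimer of a catalytic alpha, a scaffolding beta and a nucleotide-binding gamma subunit, which senses a fall in cellular energy and turns anabolic pathways off. The SIKs keep the CREB coactivators of the CRTC family and the class IIa histone deacetylases in the cytoplasm, and PKA inhibits them; Sik1 is itself a CREB target gene in other mammalian cells. The NUAKs act on the myosin phosphatase complex, and Nuak2 is known as a gene induced by NF-kappaB and by energy or mechanical stress in cultured cells.

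All 14 mice carried the genotype Cx3CR1-Cre/TRAPfl, so that the controls had the same alleles as the exercised animals. Cre driven by the Cx3cr1 gene switches on tagged ribosomes in cells that express it, which in the brain are microglia and also border-associated macrophages. From the motor cortex of each mouse came a TRAP library, made from mRNA bound to the tagged ribosomes, and a library of total lysate. The groups were run TRAP and home cage TRAP, then run lysate and home cage lysate, each of 7 mice; run mice spent 1 h on a rotarod and home cage mice were left as the baseline. By the labels each group held 4 females and 3 males, 4 mice of cohort 1 and 3 of cohort 2, which is the batch the labels give. Neither age nor strain is stated in the labels.

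Total counts ran from 70090518 to 241381845 per library. All 19 microglia markers and all 9 markers of border-associated macrophages were higher in TRAP than in lysate, with median log2 folds of 6.55 and 6.24, and all 12 pan-neuronal markers were lower, at a median of -1.39. TRAP thus held macrophage as well as microglial RNA, and neuronal RNA was still present in it, at a summed 2268 to 9005 CPM (read counts scaled to a common library size with TMM factors) in run TRAP and 2282 to 6872 CPM in home cage TRAP. Of 10 endothelial markers 9 were higher in TRAP and 0 lower, at a median of 1.90 log2. Of 10 mural cell markers 4 were higher and 1 lower, at a median of 0.41. The part of these cells in the TRAP over lysate ratios of the kinases was not tested. The microglia markers summed to 35723 to 102085 CPM in run TRAP and 39424 to 79307 CPM in home cage TRAP, against 618 to 771 CPM in run lysate and 625 to 826 CPM in home cage lysate, which the labels call microglial too. Y-linked genes went against the labelled sex in both libraries of run Male1 and of run Female2 in cohort 2, 4 of the 28 libraries, and results are also given without this pair of mice. Across genes, GC content tracked the cohort 2 over cohort 1 difference with a Spearman correlation of 0.74 in TRAP (15064 genes) and 0.78 in lysate (15898 genes), so levels are shown by cohort.

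The promoters of 5 of the kinases are printed: Stk11 and Nuak1, which were higher in TRAP than in lysate, Sik3 and Prkaa2, which were lower, and Prkaa1 as the partner of Prkaa2 that did not pass. They run from 250 bases before to 50 bases after the transcription start, 5′ to 3′, from RefSeq on GRCm38.p6; 6 of the 8 genes matched an entry, and Sik1 and Nuak2 did not. Capitals mark TGACG or its reverse complement CGTCA, the core of the cAMP response element bound by CREB.
Stk11 chr10:80115545-80115844, + strand: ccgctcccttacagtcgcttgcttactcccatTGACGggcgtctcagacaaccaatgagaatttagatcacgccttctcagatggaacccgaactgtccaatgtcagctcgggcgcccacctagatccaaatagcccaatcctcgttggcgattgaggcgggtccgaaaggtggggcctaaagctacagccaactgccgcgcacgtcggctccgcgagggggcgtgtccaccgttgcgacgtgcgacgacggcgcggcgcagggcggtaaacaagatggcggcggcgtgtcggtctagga
Prkaa1 chr15:5143611-5143910, + strand: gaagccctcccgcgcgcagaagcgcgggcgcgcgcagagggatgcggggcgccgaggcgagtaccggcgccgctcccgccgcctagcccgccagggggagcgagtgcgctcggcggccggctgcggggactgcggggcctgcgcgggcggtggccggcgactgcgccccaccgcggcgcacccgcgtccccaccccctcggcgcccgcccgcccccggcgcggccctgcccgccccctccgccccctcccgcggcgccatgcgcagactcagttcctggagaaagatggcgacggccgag
Prkaa2 chr4:105109849-105110148, - strand: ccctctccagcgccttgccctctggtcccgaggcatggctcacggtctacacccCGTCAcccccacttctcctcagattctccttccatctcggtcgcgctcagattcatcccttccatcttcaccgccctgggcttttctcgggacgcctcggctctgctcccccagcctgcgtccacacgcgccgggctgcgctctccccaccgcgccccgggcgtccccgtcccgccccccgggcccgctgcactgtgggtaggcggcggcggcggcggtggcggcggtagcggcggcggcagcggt
Sik3 chr9:46012570-46012869, + strand: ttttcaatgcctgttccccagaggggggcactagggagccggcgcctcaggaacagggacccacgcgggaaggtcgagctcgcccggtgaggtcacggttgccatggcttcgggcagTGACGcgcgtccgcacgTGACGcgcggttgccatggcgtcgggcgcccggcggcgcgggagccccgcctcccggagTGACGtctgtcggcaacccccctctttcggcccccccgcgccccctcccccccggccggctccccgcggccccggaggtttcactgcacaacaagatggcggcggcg
Nuak1 chr10:84440619-84440918, - strand: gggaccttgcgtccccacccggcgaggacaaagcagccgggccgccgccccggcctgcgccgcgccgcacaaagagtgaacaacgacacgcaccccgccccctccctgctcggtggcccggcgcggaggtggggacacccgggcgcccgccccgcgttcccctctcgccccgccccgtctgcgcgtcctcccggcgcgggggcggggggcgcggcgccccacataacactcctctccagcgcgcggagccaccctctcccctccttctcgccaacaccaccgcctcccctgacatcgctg
The Stk11 promoter held the core once, at -218 from the transcription start, Prkaa2 once at -196, and Sik3 at -133, -116 and -57; Sik2, which is not printed, held it at -1 and 12. Prkaa1 and Nuak1 did not hold it in this window. On either strand it occurred in 20.8% of 32851 promoters of the same length. The full palindrome TGACGTCA, which contains the core, was in 1.79% of them and in 0 of these 6. The PU.1 motif GAGGAAG or its reverse complement, a site of the macrophage lineage factor, was in 13.6% and in 0 of these 6. All 6 promoters were GC-rich, at 61.3 to 82.0% against a median of 52.7% over all promoters. The shares over all promoters were not matched for GC content, and the core itself holds CG, so no enrichment is read from them.

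TRAP against lysate asks which of these kinases were higher in the TRAP fraction, which was not microglial alone, than in the cortex as a whole. Leaving aside Nuak2, whose ratio is a description, 6 of the other 7 kinases passed, with 3 higher in TRAP (Stk11, Sik1, Nuak1) and 3 lower (Sik2, Sik3, Prkaa2), while Prkaa1 did not pass. The TRAP values that selected Sik1 enter its ratio, so its call is a description too. In the home cage libraries alone Sik1 did not pass (adjusted p = 0.387, edgeR). This is read against a background in which 73.9% of the 16880 genes tested passed, 33.8% higher and 40.1% lower, so the count of 6 is near the background and the content is in the sizes and directions. The median log2 fold of the 8 kinases was 0.36, against -0.21 over all genes tested. That median includes the selected Nuak2 and Sik1, so it is a description and supports nothing. With RLE factors in place of TMM the median over all genes was -0.25 and each of the 8 directions was kept. In bulk libraries a change in the number of cells of a type and a change in RNA per cell cannot be told apart.

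Stk11 encodes LKB1, the upstream kinase, and lies on GRCm38 chromosome 10 from 80115803 to 80130682 on the plus strand. It was at 41.9 to 190 CPM in run TRAP (median 50.8) and 45.2 to 135 CPM in home cage TRAP (median 55.7), against 18.5 to 82.7 CPM in run lysate (median 27.4) and 13.3 to 76.7 CPM in home cage lysate (median 26.7). Within each cohort every TRAP library was above every lysate library, and cohort 2 was the higher cohort in both fractions. The fold was 2.19, or 1.13 ± 0.11 on the log2 scale (SE, 28 libraries; edgeR adjusted p = 9.46e-11), with TRAP higher in 14 of 14 mice. Stk11 exons share 232 bases with Cbarp on the opposite strand, and reads there cannot be assigned without strand. Per kilobase of exon Stk11 had the highest mean of the 8 in both fractions, at 30.3 ± 17.4 CPM in TRAP and 14.8 ± 9.69 CPM in lysate (SD, 14 libraries each). It was above the gene of the next mean, Nuak1 in TRAP and Sik3 in lysate, in 14 of 14 libraries. In lysate of cohort 1 it led by the mean only. There it was at 7.06 ± 1.91, with overlapping spreads for Prkaa1 at 5.41 ± 1.05 and Prkaa2 at 5.14 ± 0.661 (SD, n = 8). Its lowest lysate library was at 4.76.

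Of LKB1's partners, the pseudokinases STRAD and the scaffolds MO25, 1 of 4 rose in TRAP and 0 fell. Strada was higher by 0.74 ± 0.13 log2, while Cab39, Cab39l and Stradb did not pass. The other upstream kinases of AMPK split the other way, with 1 of 3 higher and 2 lower. The calcium-dependent kinase gene Camkk1 was lower in TRAP by -1.79 ± 0.11 log2 and Camkk2 by -0.55 ± 0.10, while Map3k7 (TAK1) was higher by 0.48 ± 0.10. CAMKK is the route that links neuronal calcium to AMPK, and both of its genes were lower in TRAP than in lysate.

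The AMPK catalytic subunits parted. Prkaa1 (alpha1, chromosome 15, 5143861 to 5181899, plus strand) was at 12.5 to 37.4 CPM in run TRAP (median 19.2) and 13.7 to 34.4 CPM in home cage TRAP (median 24.7), against 11.5 to 29.3 CPM in run lysate (median 18.2) and 11.8 to 31.1 CPM in home cage lysate (median 23.1). The fractions overlapped, TRAP was higher in 10 of 14 mice, and the difference of 0.21 ± 0.13 log2 did not pass (adjusted p = 0.127, edgeR). Prkaa2 (alpha2, chromosome 4, 105029874 to 105109890, minus strand) was at 2.45 to 29.7 CPM in run TRAP (median 13.2) and 3.24 to 28.0 CPM in home cage TRAP (median 17.7), against 16.5 to 43.2 CPM in run lysate (median 31.8) and 18.3 to 48.6 CPM in home cage lysate (median 39.1). Within each cohort every TRAP library was below every lysate library. It was 2.81-fold lower in TRAP, -1.49 ± 0.18 log2 (adjusted p = 1.50e-08, edgeR), and lower in 14 of 14 mice.

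Per length of exon, Prkaa1 made up 75.1 ± 12.4% of the 2 alpha transcripts in run TRAP and 77.7 ± 10.7% in home cage TRAP, against 52.7 ± 6.18% in run lysate and 51.2 ± 3.00% in home cage lysate (SD, n = 7 each). The share was 85.7 ± 4.27% in run and 87.5 ± 3.96% in home cage TRAP of cohort 2 (n = 3 each), and 67.2 ± 9.91% and 70.3 ± 7.12% in those of cohort 1 (n = 4 each). So alpha1 was the main alpha transcript in TRAP of both conditions and the pair was near parity in lysate.

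The regulatory subunits also parted by isoform, with 1 of 4 tested higher in TRAP and 3 lower (median -0.99 log2); Prkag3 was not tested. Prkab1, the beta1 scaffold, averaged 101 ± 36.1 CPM in TRAP and 15.0 ± 4.86 CPM in lysate, a log2 difference of 2.73 ± 0.10. Prkab2, the beta2 scaffold, averaged 7.37 ± 3.97 CPM in TRAP and 27.9 ± 3.24 CPM in lysate (SD, n = 14 each), at -2.03 ± 0.15 log2. Each went its way in 14 of 14 mice. The gamma subunits Prkag1 and Prkag2 were both lower, by -0.57 ± 0.10 and -1.42 ± 0.09 log2. Of the AMPK subunits that passed, Prkab1 was thus higher in TRAP than in lysate and Prkaa2, Prkab2, Prkag1 and Prkag2 were lower.

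**Figure D1:**
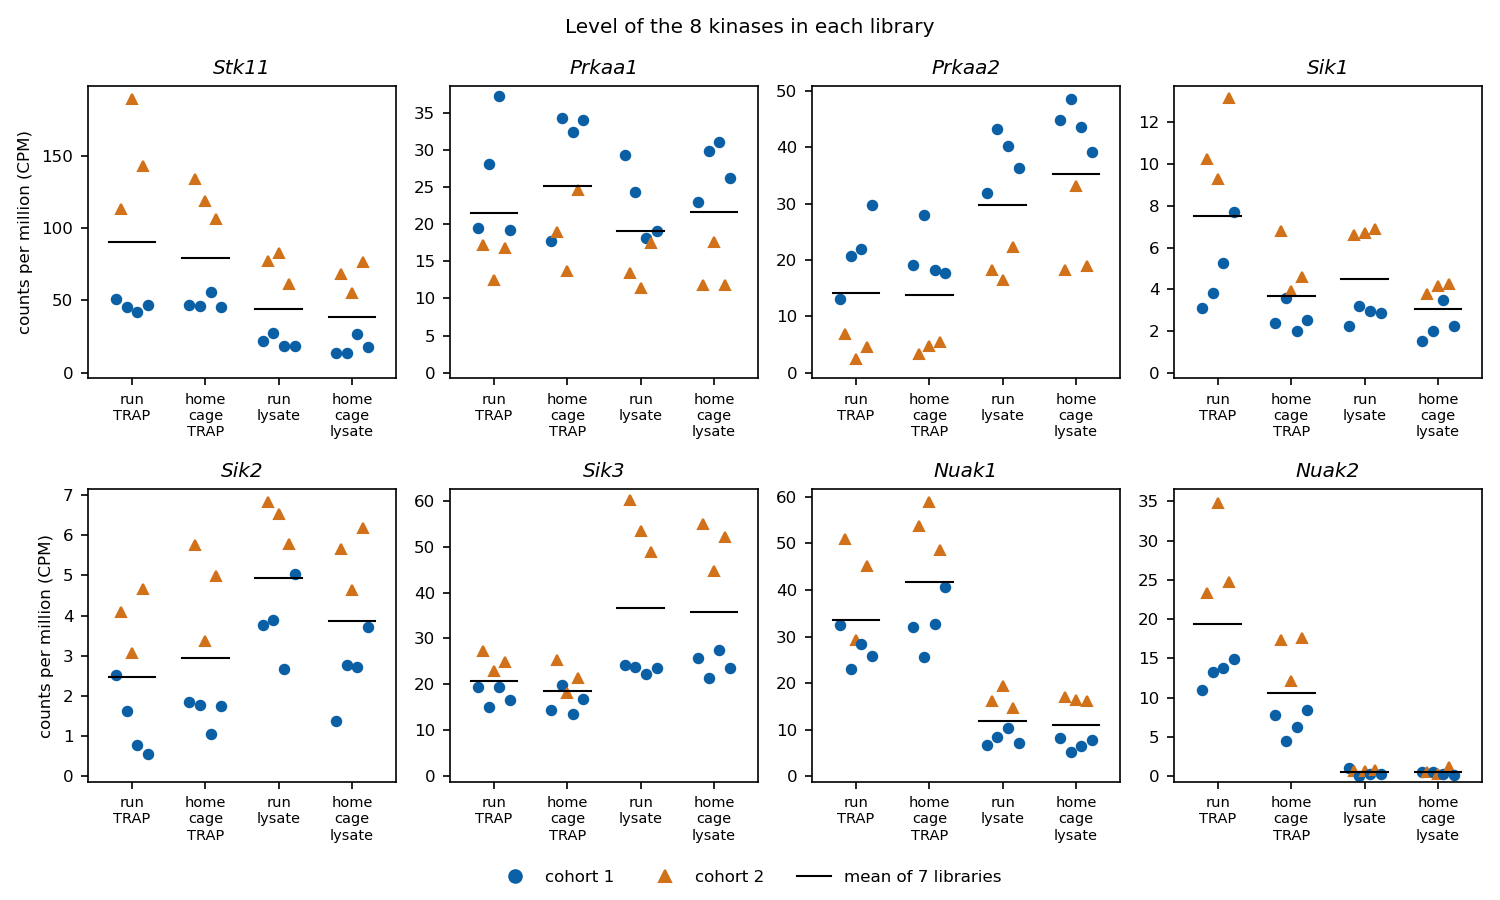
Level in CPM (y axis, linear, scaled over all 28 libraries) of the 8 kinases in run TRAP, home cage TRAP, run lysate and home cage lysate; each point is 1 library, blue circles are cohort 1, orange triangles cohort 2, and bars are means of 7. Nuak2 reaches 34.8 CPM in run TRAP and stays at or under 1.15 CPM in lysate, and Prkaa2 has its lowest values in the TRAP libraries of cohort 2.

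The SIKs did not move together. Sik1 (chromosome 17, 31844250 to 31855804, minus strand) is the inducible SIK, and it was at 3.09 to 13.2 CPM in run TRAP (median 7.70) and 2.01 to 6.78 CPM in home cage TRAP (median 3.60), against 2.21 to 6.86 CPM in run lysate (median 3.20) and 1.50 to 4.25 CPM in home cage lysate (median 3.48). The fractions overlapped in both cohorts, with TRAP higher in 12 of 14 mice. As a description, since the run TRAP values that selected Sik1 enter it, the difference was 0.51 ± 0.15 log2, or 1.42-fold. It did not pass in the home cage libraries alone, at 0.25 ± 0.25 log2 (adjusted p = 0.387, edgeR), or in cohort 1 alone, at 0.51 ± 0.26 (adjusted p = 0.101, edgeR). 

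Sik2 (chromosome 9, 50892801 to 51009073, minus strand) had, over both cohorts, the lowest level of the 8 in TRAP per length (Prkaa2 was lower in cohort 2), at 0.491 ± 0.301 CPM per kilobase. It was at 0.546 to 4.67 CPM in run TRAP (median 2.53) and 1.04 to 5.75 CPM in home cage TRAP (median 1.84), against 2.67 to 6.83 CPM in run lysate (median 5.03) and 1.36 to 6.19 CPM in home cage lysate (median 3.73). Values of TRAP and lysate overlapped and TRAP was lower in 12 of 14 mice. The fold was 1.77 lower in TRAP, -0.83 ± 0.21 log2 (adjusted p = 0.000682, edgeR), and -0.50 log2 in the home cage libraries alone (adjusted p = 0.108). Sik2 exons share 1429 bases with Ppp2r1b on the opposite strand, so its counts are uncertain.

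Sik3 (chromosome 9, 46012820 to 46224194, plus strand), the SIK that is widely expressed, was at 15.0 to 27.2 CPM in run TRAP (median 19.4) and 13.6 to 25.2 CPM in home cage TRAP (median 18.2), against 22.2 to 60.2 CPM in run lysate (median 24.2) and 21.4 to 55.0 CPM in home cage lysate (median 27.5). Within each cohort all TRAP libraries were below all lysate libraries. The difference was -0.79 ± 0.10 log2, 1.73-fold lower in TRAP (adjusted p = 1.79e-08, edgeR), and it had that sign in 14 of 14 mice. In lysate Sik3 stood next to Prkaa1 in the order of levels per kilobase, and in 6 of 14 libraries it was above it.

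The targets held by SIKs showed a paralogue split of their own, with 4 of 7 higher in TRAP and 2 lower (median 0.39 log2). Crtc3 averaged 26.2 ± 11.5 CPM in TRAP and 5.03 ± 1.88 CPM in lysate, a difference of 2.34 ± 0.12 log2, and Crtc2 was higher by 0.91 ± 0.10. Crtc1, the CRTC known for its part in neuronal plasticity, was lower in TRAP, at -0.71 ± 0.12 log2. Of 8 other AMPK-related kinases, 4 were higher and 2 lower. Mark1 (-1.14 ± 0.13) and Brsk2 (-1.05 ± 0.16), polarity kinases of neurons, were the 2 lower, and Mark3 was higher by 0.40 ± 0.08 log2.

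The NUAKs were both higher in TRAP. Nuak1 (chromosome 10, 84370905 to 84440597, minus strand), known for its part in axon branching in cortical neurons, was at 23.1 to 51.1 CPM in run TRAP (median 29.2) and 25.6 to 58.9 CPM in home cage TRAP (median 40.6), against 6.71 to 19.4 CPM in run lysate (median 10.2) and 5.20 to 16.9 CPM in home cage lysate (median 8.12). No TRAP library fell to the level of any lysate library. The fold was 3.46, 1.79 ± 0.11 log2 (adjusted p = 3.20e-15, edgeR), higher in 14 of 14 mice. Of 3 NUAK effectors 1 was higher in TRAP and 2 lower; Ppp1r12a (MYPT1), the subunit that NUAK1 phosphorylates, was higher by 0.81 ± 0.08 log2.

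Nuak2 (chromosome 1, 132316126 to 132333488, plus strand) had 10.9, 13.3, 13.7 and 15.0 CPM in run TRAP of cohort 1 and 23.3, 24.7 and 34.8 CPM in that of cohort 2. Home cage TRAP held 4.54, 6.29, 7.80 and 8.49 CPM in cohort 1 and 12.1, 17.3 and 17.6 CPM in cohort 2. Lysate held 0 to 0.987 CPM in run mice (median 0.642) and 0.177 to 1.15 CPM in home cage mice (median 0.521). Nuak2 was thus nearly absent from the lysate libraries and well counted in TRAP. As a description, TRAP was above lysate by 4.77 ± 0.33 log2 (SE), or 27.4-fold, and was higher in 14 of 14 mice; the lysate of run Female2 of cohort 1 held 0 counts, which allows up to 0.0326 CPM (3 counts of 91990723, counting error only). The markers of border-associated macrophages summed to 850 to 1786 CPM in run TRAP and 930 to 1478 CPM in home cage TRAP, so their share in Nuak2 cannot be told apart from that of microglia.

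**Figure D2:**
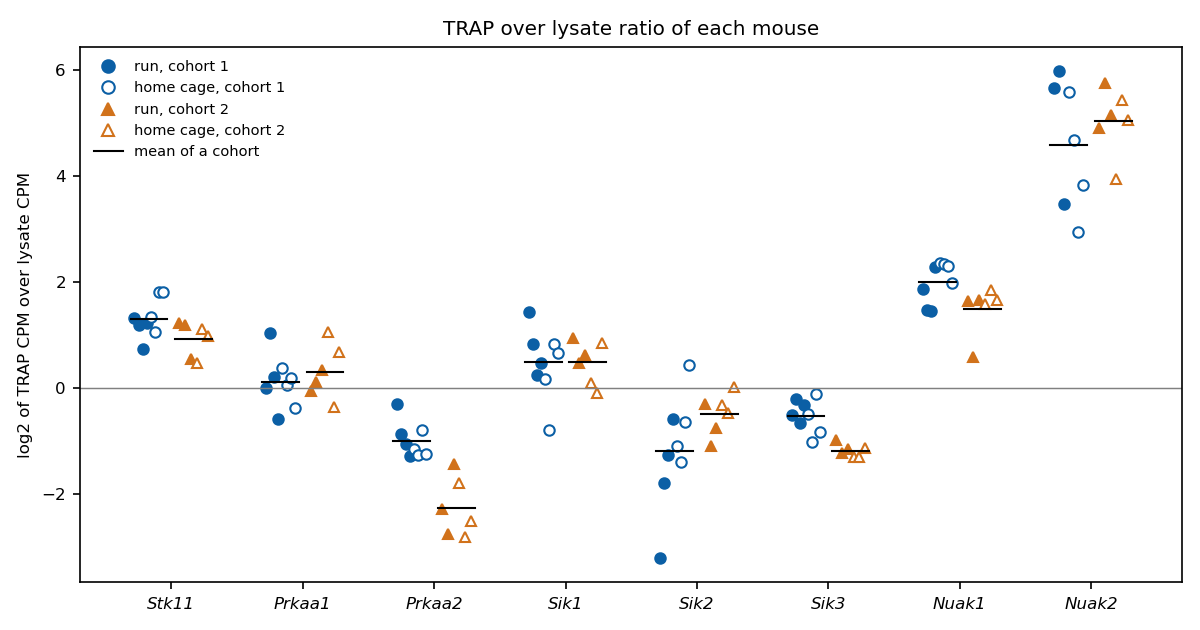
Log2 of TRAP CPM over lysate CPM (y axis) in each mouse for the 8 kinases, filled symbols for run and open ones for home cage mice, circles for cohort 1 and triangles for cohort 2, bars for cohort means; run Female2 of cohort 1 is missing for Nuak2, whose lysate count was 0. Nuak2, Nuak1 and Stk11 lie above 0 and Sik3 and Prkaa2 below 0 in all mice shown, with lower values of the last pair in cohort 2.

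A ratio above 0 in all mice was found for 3 of the 8 kinases (Nuak1, Nuak2, Stk11), where 21.9% of the genes tested had it, and a ratio below 0 in all mice for 2 (Sik3, Prkaa2), where 18.9% had it. Without the mice labelled Male1 and Female2 of run cohort 2 the same 6 kinases passed in the same directions, with log2 differences of 0.47 for Sik1, -0.98 for Sik2, -0.77 for Sik3, 1.83 for Nuak1, -1.33 for Prkaa2 and 1.05 for Stk11, and Nuak2 stood at 4.70. With the mouse as a replicate block these 6 also passed.

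The fraction ratio depended on cohort for 2 of the 8 kinases, against 20.1% of the 17092 genes tested. Sik3 averaged -1.18 log2 in cohort 2 and -0.52 in cohort 1, a fitted difference of -0.67 ± 0.15 (adjusted p = 0.00206, edgeR). Prkaa2 averaged -2.26 log2 in cohort 2 and -0.99 in cohort 1, a difference of -1.26 ± 0.27 (adjusted p = 0.00140, edgeR). Both kept the same sign in both cohorts. The pan-neuronal markers moved the same way, 11 of 12 lower in cohort 2 with a median of -0.85, as did 8 of 10 excitatory markers with a median of -1.09; the microglia markers were higher in 6 of 19 with a median of 0.39. Their part in the result was not tested. The transcript of Prkaa2 is poor in GC (40.7%, against 54.3% for Sik3), and in cohort 2 its level was below that of cohort 1 by -2.09 log2 in TRAP and -0.99 in lysate, while Sik3 was above by 0.46 in TRAP and 1.09 in lysate.

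**Figure D3:**
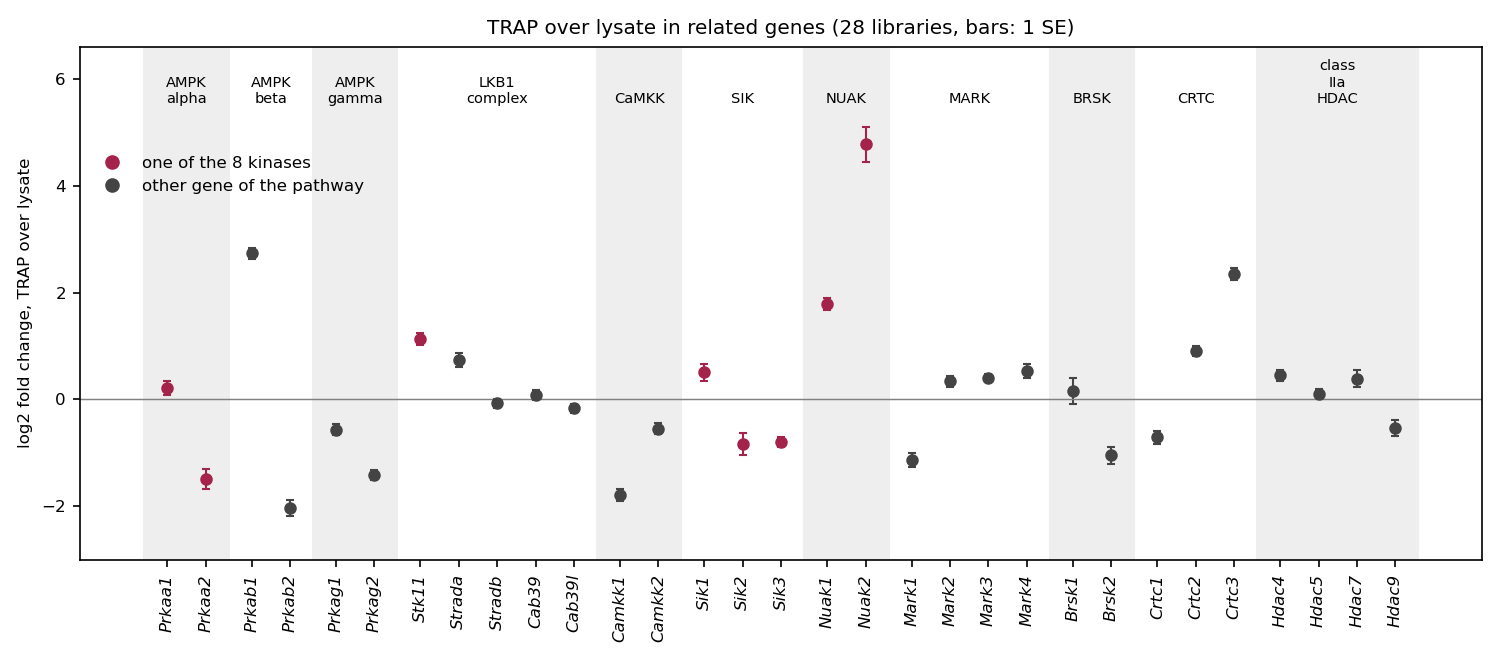
Log2 fold change of TRAP over lysate (y axis, edgeR over 28 libraries, bars of 1 SE) for the 8 kinases in red and related genes in grey, grouped by family along the x axis. Within the AMPK alpha, AMPK beta, SIK, MARK and CRTC families some members are above 0 and others below it, from 2.73 for Prkab1 to -2.03 for Prkab2 in the beta pair.

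Run against home cage asks which of the kinases differ after 1 h on the rotarod. In TRAP these values chose the genes, so the counts are a description from which nothing is read. Of the 8, 0 were called by edgeR (3 at an unadjusted p under 0.05) or limma-voom and 2 by DESeq2. Of all 15644 genes edgeR called 6, 0.0384%, with 557 at an unadjusted p under 0.05. The median log2 fold of the 8 was 0.07, against 0.00 over all genes, and 5 were above 0.

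Nuak2 in TRAP was higher after running by 0.91 ± 0.17 log2, or 1.87-fold (SE, 7 against 7), with 0.99 ± 0.24 in cohort 1 alone and 0.80 ± 0.25 in cohort 2 alone. Run TRAP libraries lay above every home cage TRAP library within each cohort, as in 0.179% of genes tested. Nuak2 was the 1 kinase of the 8 to do so, and 0 of the 8 lay below, as did 0.0639% of genes. Because Nuak2 was selected on its run TRAP values, its place among these genes is a description and supports nothing. Without Male1 and Female2 of run cohort 2 the fold was 0.87 ± 0.20 log2.

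Sik1 had 3.09, 3.83, 5.27 and 7.70 CPM in run TRAP of cohort 1 and 9.30, 10.2 and 13.2 CPM in that of cohort 2. Home cage TRAP held 2.01, 2.39, 2.52 and 3.60 CPM in cohort 1 and 3.90, 4.57 and 6.78 CPM in cohort 2. The groups overlapped in cohort 1, where the lowest run library was under the highest home cage library, and did not in cohort 2. The log2 fold was 1.00 ± 0.24, or 2.01-fold, with 0.94 ± 0.40 in cohort 1 alone and 1.08 ± 0.30 in cohort 2 alone, and 0.95 ± 0.29 without the 2 mice of doubtful sex.

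The other 6 kinases had smaller values in TRAP. Nuak1 stood at -0.30 ± 0.14 log2, and at -0.20 ± 0.14 without Male1 and Female2 of run cohort 2, opposite in sign to Nuak2. Sik2 and Prkaa1 stood at -0.24 ± 0.35 and -0.24 ± 0.20, and Sik3 at 0.16 ± 0.13. Stk11 was at 0.09 ± 0.13, with the other sign in cohort 1 alone (-0.059) and without Male1 and Female2 of run cohort 2 (-0.068). Prkaa2 was at 0.05 ± 0.23, with the other sign in limma-voom (-0.044) and with microglial purity as a covariate (-0.066). Run and home cage libraries of these 6 overlapped in both cohorts. Endothelial markers were below 0 in 10 of 10 genes in the same comparison, at a median of -0.29 log2 and 0 passing, with a summed level of 292 to 633 CPM in run TRAP and 245 to 788 CPM in home cage TRAP; pan-neuronal markers had a median of 0.17. Their part in the kinase values was not tested.

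**Figure D4:**
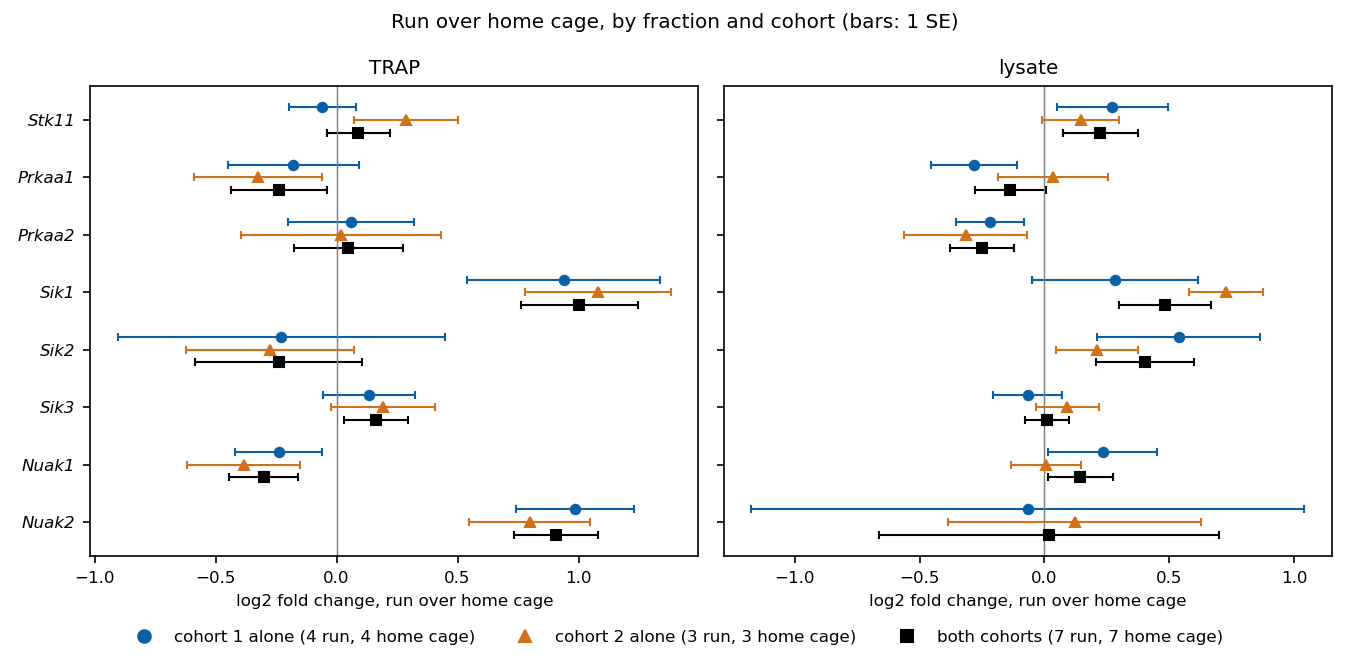
Log2 fold change of run over home cage (x axis, edgeR, bars of 1 SE) for the 8 kinases in TRAP (left) and lysate (right), for cohort 1 alone, cohort 2 alone and both cohorts. In TRAP, Sik1 and Nuak2 are near 1 in both cohorts and the other 6 lie between -0.38 and 0.29; in lysate Sik1 has the largest value, 0.48 with both cohorts.

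In lysate, a measure that did not choose the genes, 0 of the 8 kinases passed in edgeR, limma-voom or DESeq2. In edgeR 1 kinase (Sik1) had an unadjusted p under 0.05, as did 1206 of the 16522 genes tested, and 0.0303% of all genes tested passed. Sik1 stood at 2.21, 2.85, 2.96 and 3.20 CPM in run lysate of cohort 1 and 6.59, 6.70 and 6.86 CPM in that of cohort 2. Home cage lysate had 1.50, 2.01, 2.24 and 3.48 CPM in cohort 1 and 3.75, 4.13 and 4.25 CPM in cohort 2. Only in cohort 2 were the groups apart, as the highest home cage library of cohort 1 exceeded every run library of that cohort. The log2 fold of 0.48 ± 0.18 did not pass (adjusted p = 0.643, edgeR).

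Sik2 stood at 0.40 ± 0.20 (adjusted p = 0.680, edgeR), Prkaa2 at -0.25 ± 0.13 (0.693), Stk11 at 0.22 ± 0.15 (0.734), Nuak1 at 0.14 ± 0.13 (0.800) and Prkaa1 at -0.14 ± 0.14 (0.824) in lysate. Sik3 was at 0.01 ± 0.09 (adjusted p = 0.987, edgeR). Nuak2 in lysate was at 0.02 ± 0.68 log2 (adjusted p = 0.997, edgeR), with 0 to 249 counts per library; the SE is wide enough to span a change of the size described in TRAP. None of the 8 kinases had run lysate libraries above, or below, every home cage lysate library in each cohort, where 0.291% and 0.0968% of genes did. The median over the 8 was 0.08 log2, against 0.00 over all genes.

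Whether the run effect differed between the fractions was tested for each kinase, and 0 of 8 passed, as did 0% of the 16880 genes in edgeR (696 at an unadjusted p under 0.05, 0 of them these kinases; 49 genes and 0 of the kinases in DESeq2). Sik2 stood at -0.66 ± 0.41 log2 and Nuak1 at -0.42 ± 0.21 (adjusted p = 1 for each, edgeR). As a description, since the run TRAP values that selected them enter it, Nuak2 stood at 0.90 ± 0.58 and Sik1 at 0.52 ± 0.31. For Sik1 and Nuak2 a difference of the run effect between TRAP and lysate was not shown, and nothing more is read from these values. The run effect did not pass a test of difference between cohorts in any of the 8, in TRAP (0% of 16289 genes, 804 at an unadjusted p under 0.05) or in lysate (0% of 17101 genes, 428 at an unadjusted p under 0.05), nor in DESeq2 for these kinases.

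Genes downstream of the SIK and CREB axis were read beside the kinases. These lists were chosen with earlier results of these data known, so their counts and medians are a description and support nothing. Of 15 CREB and CRTC target genes tested in TRAP, 14 had a positive run over home cage value at a median of 0.36 log2, with 0 passing, where 50.2% of all genes tested were positive at a median of 0.00. In the same comparison 10 of 12 pan-neuronal markers were positive at a median of 0.17 and 9 of 10 inhibitory neuron markers at a median of 0.23, and their part was not tested. Among the targets, Per1 stood at 0.82 ± 0.19, Fos at 0.82 ± 0.23 and Fosb at 1.18 ± 0.33. In lysate 12 of 16 were positive at a median of 0.20 (50.4% of all genes), and 1 rose, Gem, a small GTPase, at 1.48 ± 0.24 log2 (adjusted p = 0.0264, edgeR). That call was lost, as no gene passed (0), without Male1 and Female2 of run cohort 2, in each cohort alone, with no cohort term and with the replicate block. It was also lost on leaving out home cage Female1, Male1 or Male2 of cohort 1, home cage Female1 of cohort 2, run Male1 or Male2 of cohort 1, or run Female1 or Female2 of cohort 2. Fos, Fosb and Per1 are also immediate early genes of active neurons. The CRTC and class IIa histone deacetylase genes had a median of -0.03 log2 in TRAP and 0.00 in lysate, 0 of 7 passing in each. The AMPK regulatory subunits had medians of 0.01 in TRAP and 0.14 in lysate, 0 of 4 passing in each, and Prkab2 in TRAP was at 0.47 ± 0.24.

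Of 13 AMPK effectors tested, 0 passed after running in either fraction (medians -0.08 log2 in TRAP and -0.03 in lysate). Between fractions 5 were higher in TRAP and 6 lower: Pfkfb3, which makes the activator of glycolytic phosphofructokinase, was higher by 1.77 ± 0.10 log2, and Rptor, the mTORC1 scaffold that AMPK phosphorylates, by 1.51 ± 0.09. Of 16 CREB and CRTC targets 2 were higher and 11 lower in TRAP, with Rgs2, a regulator of G protein signalling, higher by 2.29 ± 0.11, and Pde4b and Fos lower by -1.56 ± 0.10 and -1.46 ± 0.15. Of 8 genes of PKA and CREB 4 were higher and 4 lower, led by Atf1 at 2.57 ± 0.12, with the PKA regulatory subunits Prkar1b at -1.60 ± 0.10 and Prkar2b at -1.98 ± 0.16.

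By the means, the order of levels per kilobase of exon differed between the fractions and, below Stk11, between the cohorts. Over both cohorts, in TRAP Nuak1 followed Stk11 at 6.78 ± 2.12 CPM per kilobase, then Prkaa1 at 5.01 ± 1.80, Nuak2 at 4.79 ± 2.62, Sik3 at 3.12 ± 0.675, Prkaa2 at 1.76 ± 1.18 and Sik1 at 1.24 ± 0.747. In lysate Sik3 followed Stk11 at 5.75 ± 2.39, then Prkaa1 at 4.38 ± 1.51, Prkaa2 at 4.08 ± 1.44, Nuak1 at 2.05 ± 0.881, Sik1 at 0.834 ± 0.395, Sik2 at 0.798 ± 0.304 and Nuak2 at 0.163 ± 0.105 (SD, 14 libraries each). Neighbours were not apart beyond their spread for Nuak1 and Prkaa1 in TRAP, where Nuak1 was above in 9 of 14 libraries, for Prkaa1 and Nuak2 (7 of 14), Sik3 and Prkaa2 (9 of 14) and Prkaa2 and Sik1 (8 of 14). In lysate the same held for Sik3 and Prkaa1 (6 of 14), Prkaa1 and Prkaa2 (9 of 14), Prkaa2 and Nuak1 (10 of 14) and Sik1 and Sik2 (8 of 14). In lysate of cohort 2 Sik3 followed Stk11, at 8.34 ± 0.836 CPM per kilobase against 3.00 ± 0.616 for Prkaa1 and 2.67 ± 0.769 for Prkaa2 (SD, n = 6). In lysate of cohort 1 it stood at 3.81 ± 0.305, under Prkaa1 at 5.41 ± 1.05 and Prkaa2 at 5.14 ± 0.661 (n = 8). Stk11 was at 7.06 ± 1.91 there, not apart from Prkaa1 and Prkaa2 beyond its spread. In TRAP Prkaa2 was the lowest of the 8 in cohort 2, at 0.572 ± 0.196, and stood above Sik1 and Sik2 in cohort 1, at 2.64 ± 0.686.

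The genes whose level in TRAP was most like that of Nuak2, by Pearson correlation of log2 CPM (pseudocount 0.5) over 14 libraries after subtracting each cohort's mean, among 11814 genes, were Nfkbia (0.88), Rgs1 (0.86), Tagap (0.85), Bambi (0.84) and Fosb (0.84). For Sik1 they included Ank1 (0.83), Tubgcp3 (0.82), Runx2 (0.81) and Slc6a17 (0.80). The libraries share the run and home cage groups, depth and composition, so these values are a description. In lysate Sik1 was nearest to Nptx1 (0.87), Scrib (0.85), Zbtb7b (0.83), Rara (0.81) and Atxn1 (0.81). Nuak2 in lysate was nearest to Gemin7 (0.92), Rab8a (0.89), Tmem42 (0.87), Mrpl53 (0.86) and Uqcc2 (0.84), at levels of Nuak2 close to 0.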

How the data were processed

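Poly(A) RNA of 28 libraries (14 mice, a TRAP and a total lysate library each) was measured. Per the labels' protocols RNA was isolated with the RNeasy Mini Kit and libraries were made with Nextera XT; the submitters' processing notes name GRCm38 as the build, with STAR 2.7.7a, and also DESeq2 and featureCounts. The values deposited by the authors were raw counts per gene symbol, with no normalisation. The strand setting, the annotation and the handling of multimapping reads were not given in the sources used here. Cohort 2 is marked in the table's column names, and unmarked columns were assigned to cohort 1. No column belonged to other samples (0 such columns). Among counts of at least 20, between 52.9 and 62.9% per library were even numbers, and the cause was not tested. The libraries closest to each other within a group differed by a chi-square of 67.5 per degree of freedom, so none was a duplicate.

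Counts were tested with edgeR 4.0.16 (R 4.3.3) quasi-likelihood F tests, TMM factors, filterByExpr and Benjamini-Hochberg adjustment over all genes, called at 0.05. Run and home cage were compared in each fraction over 14 libraries with cohort as covariate; TRAP and lysate were compared over all 28 libraries, as were the run effects of both fractions with each other and the fraction ratios of both cohorts. DESeq2 1.42.0 and limma 3.58.1 were alternatives, as were other factors, no filter, single cohorts, added covariates, each mouse left out and replicate blocks. CPM were scaled over all 28 libraries. Gene positions and exon lengths are from GENCODE on GRCm38. All 8 kinases were named in every comparison, with up to 3 passing genes of the smallest p from each pathway list and the 5 genes most like Sik1 and Nuak2 (mean log2 CPM of at least 1); further genes of these lists were chosen after their values were seen. Genes that this rule named and that are absent from the text are not reported here. The scripts were tested on simulated data. The members and lists were chosen with earlier results of these data known.

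By their titles, each TRAP library has a lysate partner from the same mouse. Partners' deviations from their groups' means had correlations of -0.05 to 0.11, of which 1 of 14 exceeded 0.1. A fit with the mouse as block was run as an alternative. Mice are separate animals, so the p-values measure the spread between animals as well as between libraries.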

Additional observations from a re-analysis of the deposited data

Results flagged for a closer look

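Each of the 32 combinations of a kinase and a group was looked at for a library far from the others. Chance flags about 1 in 20 such groups if all libraries come from a single normal population. These groups pool both cohorts, whose levels differ, so that rate need not hold and the rule can miss a library. In 1 of them a library stood apart: Nuak2 in the home cage lysate of Male1 of cohort 2 was at 1.15 CPM, with the next library of the group at 0.588 CPM. It rests on 249 counts, and the level is far under the lowest TRAP value of 4.54 CPM.

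The TRAP over lysate ratio differed between the cohorts by the test of the difference itself for Sik3, by -0.67 log2 for cohort 2 minus cohort 1, and for Prkaa2, by -1.26 log2. Without the 2 mice of run cohort 2 whose sex markers went against their labels the differences were -0.70 and -1.17 log2, with adjusted p of 0.0108 and 0.00865 (edgeR). The neuronal markers moved the same way in this comparison, and their part was not tested.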

How the results depend on the processing

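Most values kept their sign and their side of the threshold under the alternatives run. The number of the 8 kinases passing after running in TRAP was 0, and 2 with DESeq2. Over all genes, DESeq2 called 52 in TRAP (40 higher, 12 lower) and 50 in lysate (33 higher, 17 lower), where edgeR called 6 and 5. Dropping the cohort term gave 0 in each, and each cohort alone 0. In TRAP a replicate block on sex and number of the title gave 3, and leaving out a mouse 3 to 10; in lysate the block gave 0, purity as covariate 1, leaving out the mice Male1 and Female2 of run cohort 2 gave 0, and leaving out any mouse 0 to 8. For the run effect between fractions DESeq2 called 49 (34 higher, 15 lower) and cohort 2 alone 2, against 0; for its cohort difference DESeq2 called 66 in TRAP and 8 in lysate, against 0. Same-numbered run and home cage mice shared only a number: their deviations correlated between -0.07 and 0.05 in TRAP and -0.20 and 0.05 in lysate. With the mouse as replicate block 12839 genes differed between fractions, against 12470. Small values changed sign in log2: Nuak2 in lysate (-0.042 without the 2 mice, -0.10 with limma-voom, -0.066 in cohort 1 alone, -0.076 with the replicate block, -0.54 to 0.26 leaving out each mouse), Sik3 in lysate (-0.067 in cohort 1 alone, -0.032 to 0.050 leaving out each mouse), Prkaa1 in lysate (0.034 in cohort 2 alone) and in its run effect in TRAP minus lysate (0.091 in cohort 1 alone, -0.25 to 0.045 leaving out each mouse), Stk11 in that difference (0.11 in cohort 2 alone). The run values in TRAP of Stk11 (-0.068 without the 2 mice, -0.059 in cohort 1 alone, -0.014 without run Female2 of cohort 2) and of Prkaa2 (-0.066 with purity, -0.044 with limma-voom, -0.017 with the replicate block, down to -0.092 leaving out a mouse) did so too. Without the 2 mice the cohort difference of the run effect in TRAP was 0.031 for Sik2, 0.17 for Nuak1, 0.030 for Prkaa1, 0.54 for Prkaa2 and -0.019 for Stk11, and the cohort difference of the fraction ratio was -0.092 for Sik1. The cause was not tested. Nuak2 in lysate rests on 0 to 249 counts per library, and its SE was 0.68 log2.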
